A study of Bos taurus with 6 samples.

Results

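The genes described here encode 8 cyclins and 2 of the kinases they activate, CDK1 and CDK2. They were taken by name as the rows of the deposited expression table whose gene symbol is CCNA2, CCNB1, CCNB2, CCND1, CCND2, CCND3, CCNE1, CCNE2, CDK1 or CDK2, which gave 10 of the 36075 rows, 1 for each symbol. Levels were measured by RNA sequencing in bovine blastocysts, embryos with an inner cell mass and an outer trophectoderm around a cavity. Oocytes from slaughterhouse ovaries were matured in vitro for 22 h with melatonin (MT) at 1e-07 mol/L or without it, then fertilised and cultured to blastocysts, and each group had 3 libraries, every one from a pool of 3 blastocysts. The concentration, the maturation time and the pool size come from the study's methods, since the labels do not state them. MT was thus in contact with the oocyte and its cumulus cells, and not with the blastocyst itself. Values of the MT-treated libraries are given below as values after MT.

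A cyclin binds a cyclin-dependent kinase (CDK) and switches it on, and successive cyclins carry a cell through its division cycle. D-type cyclins pair with CDK4 and CDK6 and act on the retinoblastoma protein in G1, E-type cyclins pair with CDK2 at the entry into S phase, cyclin A2 works with CDK2 in S phase and with CDK1 later, and B-type cyclins pair with CDK1 to drive mitosis. Cyclins are destroyed in each cycle by ubiquitin ligases, so the mRNA level is only 1 of the layers that set the amount of protein. The cells of an early embryo divide rapidly, and a blastocyst holds cells in every phase of the cycle.

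Values are in TPM, a transcript abundance in which the reads of a gene are corrected for its length and for the total of the library, so levels can be set beside each other between genes. They keep no read counts, and the study's table of sequencing depth was not used here. The libraries held 8854 to 8953 genes above 0 in control and 14372 to 14408 in MT-treated blastocysts, and the listed TPM summed to 936783 to 937698 and to 912686 to 913707. Differences between the groups were tested with limma on log2(TPM + 1) over the 11953 genes that reached 1 TPM in 3 or more libraries, with Benjamini-Hochberg adjustment, and a gene with an adjusted p under 0.05 is called higher or lower. On the log2(TPM + 1) scale, a fold change of a low gene is understated. Of all tested genes, 95.7% were called, 61.6% higher and 34.1% lower in MT-treated blastocysts, and in 96.1% the 3 values of one group did not overlap the 3 of the other. In a table where nearly every gene is called, a call alone says little about a gene, and the sizes below carry more than the p-values. For genes that reached 1 TPM in all 6 libraries the log2 fold change had a median of -0.27, and centring each library on the median of these genes removed a shift of -0.48 between the groups.

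Several markers of the labelled stage were seen in both groups. POU5F1, a pluripotency factor, averaged 189.8 TPM in control and 193 TPM after MT, and the trophectoderm keratin KRT8 had 8695 and 6905 TPM. KRT8 was called lower, and higher after median centring. POU5F1 was not called, and was called higher under median centring, rescaling to an equal sum and quantile normalization, which gives all libraries the same distribution. CDX2, a defining trophectoderm factor, and NANOG, a factor of the inner cell mass, were listed at 0 in every control library, against means of 16.1 and 8.68 TPM after MT. Of 12 cumulus and granulosa cell genes, 11 were in the table, 6 of them at 0 in all libraries, including HAS2, PTX3 and FOXL2, and CYP19A1 did not exceed 0.01 TPM. The TPM of that list summed to 98.7 to 100.3 in control and to 133.8 to 134.6 in MT-treated libraries, made up almost wholly of FSHR, CYP11A1 and SERPINE2. SERPINE2 rose from 2.48 to 35.7 TPM and CYP11A1 from 78.7 to 82.4 TPM, and FSHR was called lower (log2 fold change -0.17), higher after median centring and neither after rescaling to an equal sum. Of 13 maternal oocyte genes, 7 were at 0 throughout, and their TPM summed to 45.6 to 49.3 in control and 37.0 to 39.2 in MT-treated libraries. These sums join unlike members, since OOEP fell from 47.7 to 21.3 TPM, while BTG4 had 0 TPM throughout control and a mean of 15.2 TPM after MT. The 4 others, BMP15, ZAR1, MOS and KPNA7, were also at 0 in control and stayed under 1 TPM after MT. Of the tested marker genes of the blastocyst itself, 3 of 8 for the inner cell mass were higher and 3 lower. For the trophectoderm 9 of 11 were higher, with CDX2 and ELF5 at 0 in control, and 2 lower. The lower ones include TFAP2A, which fell from 36.1 to 0.49 TPM. All 3 tested of the 6 hypoblast genes were higher, and that list summed to 18.3 to 18.9 TPM in control and 83.5 to 87.7 after MT. Its control sum was almost all COL4A1 (mean 18.3 TPM), as GATA6 averaged 0.33 TPM there and PDGFRA 0. GATA4 and FOXA2 were at 0 throughout, and SOX17 averaged 0.16 TPM after MT. After median centring the counts were 5 higher and 2 lower for the inner cell mass and 10 and 1 for the trophectoderm, and after quantile normalization 3 and 4, without SOX2 among the higher, and 8 and 2. The part of these cell types in the levels of the cyclins was not tested. In a pool of whole embryos, a lower level can reflect fewer cells in one phase of the cycle or less RNA per cell, and these cannot be told apart.

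All 10 genes reached the level required for testing, and all 10 were called, 6 higher and 4 lower in MT-treated blastocysts, shares near those of all tested genes. Of these directions, those of CDK1 and CCND1 turned under other scalings, as given below. The group values of each of the 10 did not overlap. CCNA2, CCND1, CCNE1 and CDK2 were listed at 0 in every control library (4 of 10, against 33.8% of tested genes), so these 4 passed the level only through the MT-treated libraries and had to differ. A value of 0 can mean that a transcript was absent or that it was not captured or counted. The zeros are a feature of the whole control group, since every control library had fewer genes above 0 than every MT-treated library. For both groups alike, the labels name a different library preparation from the one in the study's methods. Whether both groups were prepared and quantified alike was not tested, and a difference of that kind cannot be told apart from an effect of MT. This bears on every zero, fold change and share given here. For these 4 genes, neither a p nor a fold change of TPM as deposited is given as a number. None of the 10 was at 0 throughout the MT-treated libraries.

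**Figure D1:**
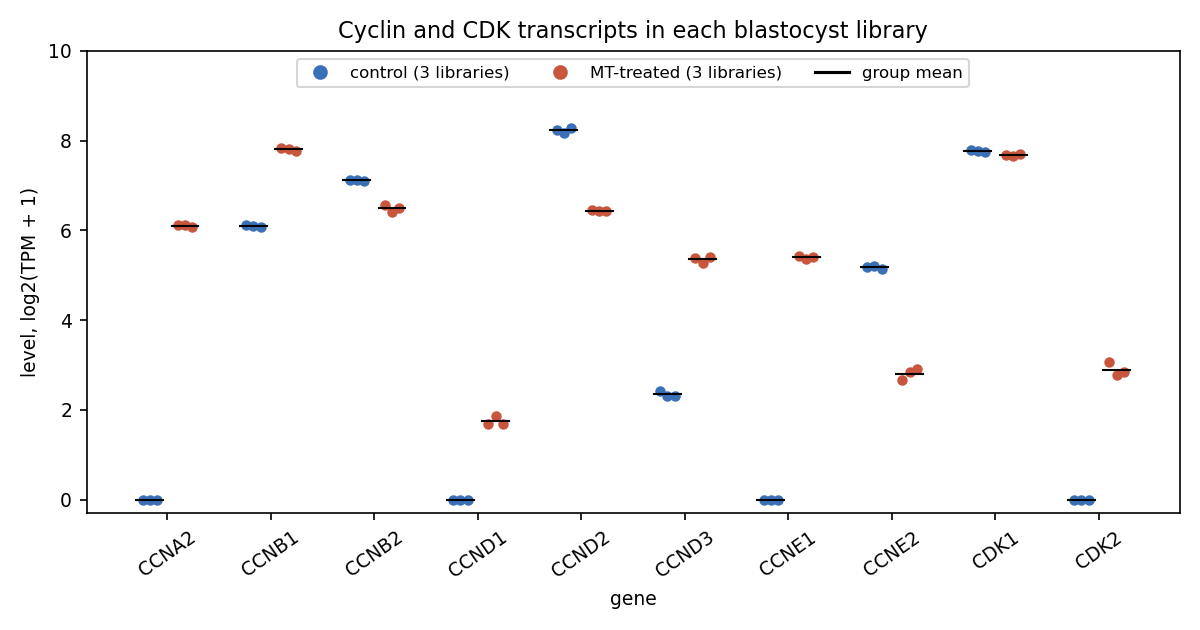
Level of each of the 10 genes as log2(TPM + 1) on the vertical axis, with each point 1 library (3 control, 3 MT-treated) and each black line a group mean. CCNA2, CCND1, CCNE1 and CDK2 sit at 0 in control, CCNB1 and CCND3 are higher in MT-treated libraries, CCNB2, CCND2 and CCNE2 are lower, and the CDK1 groups lie close together.

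The D-type cyclins, which start the cycle by activating CDK4 and CDK6, changed in both directions. CCND2 (ENSBTAG00000016649) had 300.3, 286 and 308 TPM in control and 86.1, 85.0 and 85.1 TPM after MT. The lowest control value was thus more than 3 times the highest MT-treated value, and CCND2 was 3.49-fold lower in the mean (log2 fold change -1.79, standard error 0.03, adjusted p = 1.00e-08 by limma). CCND3 (ENSBTAG00000010106) had 4.34, 3.98 and 3.92 TPM in control and 40.7, 37.5 and 41.3 TPM after MT. It rose 9.76-fold in the mean, the largest rise among the 6 genes above 0 in all libraries (log2 fold change 3.01, standard error 0.05, adjusted p = 1.28e-08 by limma), and its log2 difference was 2.36 after quantile normalization. CCND1 (ENSBTAG00000017514) was listed at 0 in each control library, against 2.21, 2.66 and 2.20 TPM after MT, the lowest level of the 10 genes in that group. With quantile normalization, CCND1 came out lower after MT (log2 fold change -0.24). This is only possible because quantile normalization set its control zeros to values above 0.

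Within a library, the share of each D-type cyclin in their summed TPM is left as it is by any scaling that multiplies a whole library by 1 factor, though not by quantile normalization. CCND2 made up 98.6%, 98.6% and 98.7% of D-type cyclin TPM in control and 66.7%, 67.9% and 66.2% in MT-treated libraries. The share of CCND3 went from 1.35% ± 0.0859 in control to 31.2% ± 1.10 after MT (SD, n = 3 each). CCND1 accounted for 1.85% ± 0.239 (SD, n = 3) after MT. The groups did not overlap in the shares of CCND2 and CCND3 (exact permutation test, two-sided, p = 0.1, the smallest p that 3 libraries against 3 allow). Together the 3 genes had 302 ± 11.2 TPM in control and 128 ± 2.12 TPM after MT (SD, n = 3 each), with the same exact permutation p of 0.1. CCND2 remained the most abundant of the 3 in every library.

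The E-type cyclins and their kinase CDK2 govern the entry into S phase. CCNE2 (ENSBTAG00000004906) had 35.1, 35.9 and 34.3 TPM in control and 5.35, 6.15 and 6.46 TPM after MT. This was the largest fall among the 10, 5.86-fold in the mean (log2 fold change -2.37, standard error 0.06, adjusted p = 1.01e-07 by limma). The size of this fall depended on the scaling, with a log2 difference of -3.67 after quantile normalization and -1.89 after median centring. CCNE1 (ENSBTAG00000004735) was listed at 0 in each control library, against 42.0, 40.0 and 41.4 TPM after MT. CCNE1 thus made up none of the E-type cyclin TPM in control and 88.7%, 86.7% and 86.5% of it in the MT-treated libraries. The sum of both was 35.1 ± 0.785 TPM in control, all of it CCNE2, and 47.1 ± 0.891 TPM after MT (SD, n = 3 each).

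CDK2 (ENSBTAG00000004021), the partner of E-type cyclins and of cyclin A2, was listed at 0 in each control library, against 7.36, 5.89 and 6.15 TPM after MT. It was far less abundant than CDK1 in every library, and CDK1 made up 96.5%, 97.2% and 97.1% of the summed TPM of both kinases in the MT-treated libraries. The log2 difference of CDK2 was 0.34 once libraries were quantile normalized. CCNA2 (ENSBTAG00000004943), the S phase and G2 cyclin, was at 0 in each control library and had 68.2, 68.4 and 66.4 TPM after MT, a spread of 1.67% of the mean. Of CCNE1, CCNE2, CCNA2 and CDK2, only CCNE2 was listed above 0 in the control libraries.

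The mitotic cyclins CCNB1 and CCNB2, both partners of CDK1, moved apart. CCNB1 (ENSBTAG00000014239) had 68.7, 67.8 and 66.6 TPM in control and 226, 224 and 218 TPM after MT. It rose 3.29-fold in the mean (log2 fold change 1.70, standard error 0.02, adjusted p = 3.28e-09 by limma) and went from rank 2079 to 2157 among all genes of a control library to rank 605 to 630 in an MT-treated library, counted from the most abundant gene. CCNB2 (ENSBTAG00000005269) had 139, 138 and 136 TPM in control and 94.3, 84.5 and 89.7 TPM after MT. It was 1.54-fold lower in the mean (log2 fold change -0.62, standard error 0.04, adjusted p = 9.70e-06 by limma). Median centring brought the log2 difference to -0.14, still called (adjusted p = 0.0181 by limma). CCNB1 made up 33.0% ± 0.157 (SD, n = 3) of B-type cyclin TPM in control and 71.3% ± 1.08 (SD, n = 3) after MT (exact permutation test, two-sided, p = 0.1). CCNB2 was the more abundant of the pair in each control library and CCNB1 in each MT-treated library.

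CDK1 (ENSBTAG00000010109), the kinase that drives mitosis, differed least of the 10 in TPM as deposited. It had 219, 218 and 214 TPM in control and 205, 202 and 206 TPM after MT. The groups did not overlap, but the means differed only 1.06-fold (log2 fold change -0.09, standard error 0.02, adjusted p = 0.00241 by limma). The direction depended on the scaling, with a log2 difference of 0.39 after median centring and 0.10 with quantile normalization. By rank, CDK1 stood at 708 to 724 in control and at 660 to 675 in MT-treated libraries, slightly nearer the top in the latter although its TPM was lower. No direction is therefore given for CDK1. The B-type cyclins summed to 0.945 ± 0.00176 TPM per TPM of CDK1 in control and to 1.53 ± 0.0363 in MT-treated blastocysts (SD, n = 3 each; exact permutation test, two-sided, p = 0.1).

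**Figure D2:**
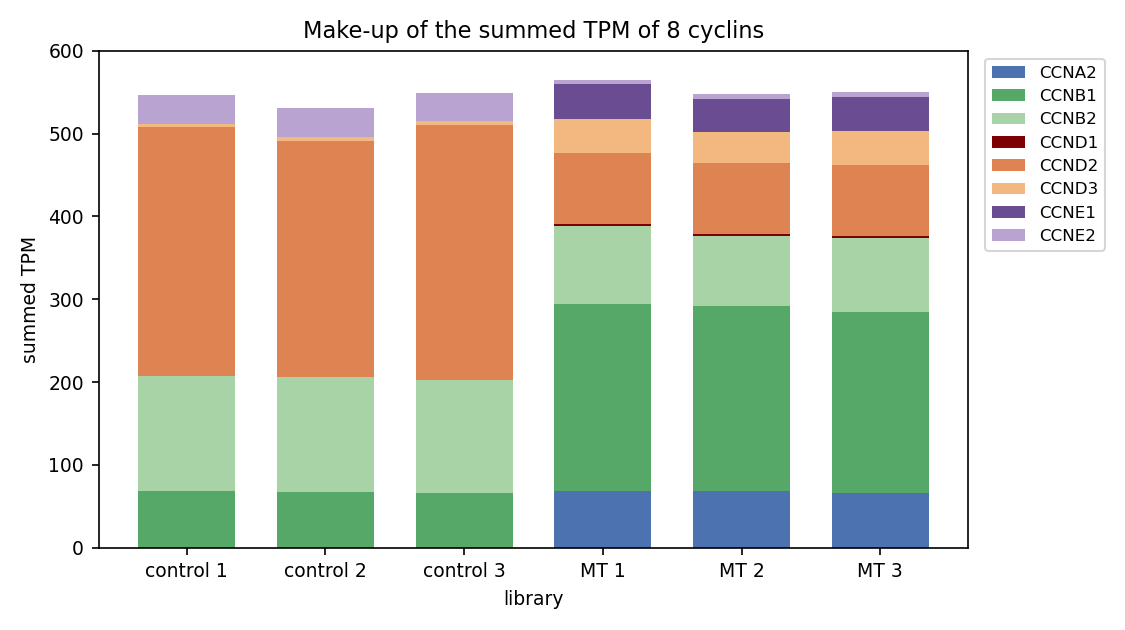
Stacked bars of the TPM of the 8 cyclins in each library, from 0 on a linear axis, with 1 colour per gene. The bars reach 531 to 549 in control and 548 to 565 in MT-treated libraries, with CCND2 the largest block in control and CCNB1 the largest in MT-treated libraries.

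Added over the 8 cyclins, the level was 542 ± 9.69 TPM in control and 554 ± 9.06 TPM after MT (SD, n = 3 each), and the groups overlapped (exact permutation test, two-sided, p = 0.2). What differed was the make-up of that sum. CCND2 held 54.9% of it in control and 15.4% in MT-treated blastocysts, while CCNB1 held 12.5% and 40.1%. CCNA2 and CCNE1, both at 0 in control, held 12.2% and 7.42% in MT-treated blastocysts. CCNB2 held 25.4% and 16.1%, CCNE2 6.47% and 1.08%, and CCND3 0.752% and 7.19%. With libraries scaled to the median of the genes present in all 6, the sum was higher in MT-treated blastocysts by 203 TPM, so the near equality of the sums holds for TPM as deposited and not for that scaling. The shares, taken within a library, are the same under both. Over the 21 ratios, shares and sums compared between the groups, 20 reached the smallest possible exact permutation p of 0.1, which is 0.105 after Benjamini-Hochberg adjustment. Of these 20, 6 set a gene at 0 in every control library against the others and had to differ. Apart from the share of CCNB1 among B-type cyclins, their sum and its ratio to CDK1, the others also hold a gene at 0 in control within a sum or total. The count of 20 is thus a description only.

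The order of levels also differed between the groups. In control the order was CCND2, CDK1, CCNB2, CCNB1, CCNE2 and CCND3, no neighbours of which overlapped, followed by the 4 genes at 0. In MT-treated blastocysts it was CCNB1, CDK1, CCNB2, CCND2, CCNA2, CCNE1, CCND3, CDK2, CCNE2 and CCND1. There the values of CCNB2 and CCND2 overlapped, as did those of CCNE1 and CCND3 and those of CDK2 and CCNE2, and these 3 pairs of neighbours do not differ beyond their spread.

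**Figure D3:**
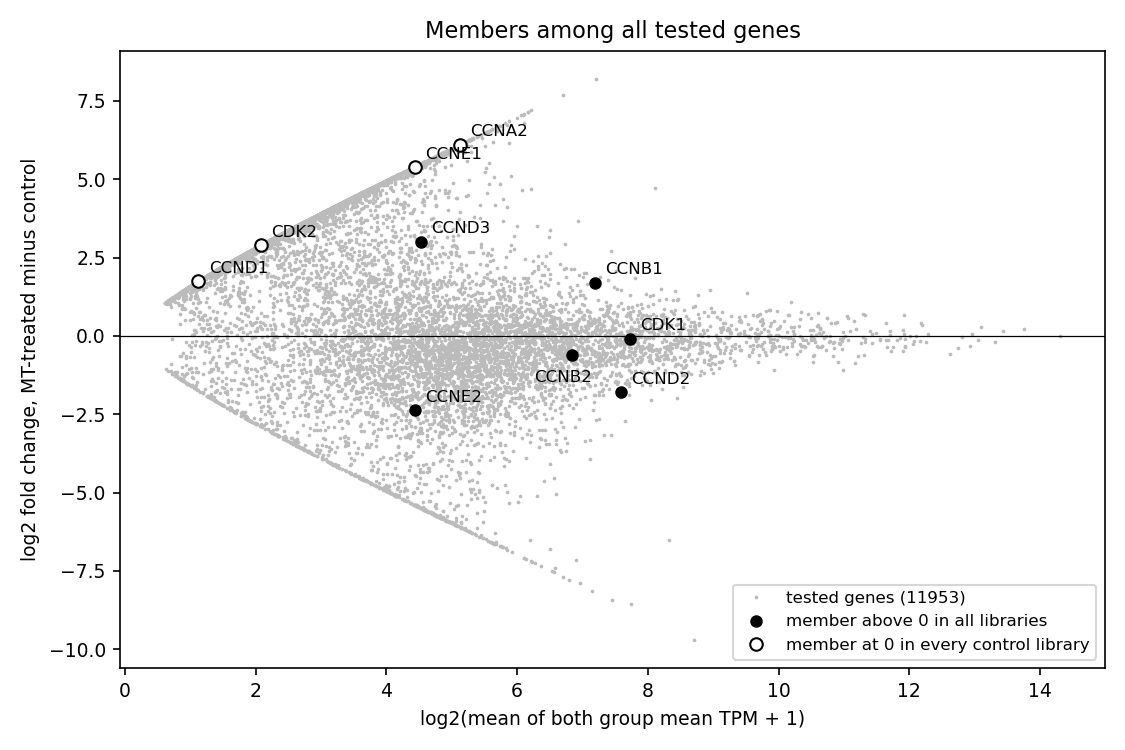
Log2 fold change (MT-treated minus control, on log2(TPM + 1)) against the mean level for all 11953 tested genes in grey, with members above 0 in all libraries as filled and members at 0 in every control library as open circles. The open circles lie on the upper edge that genes at 0 in control form, and CDK1 lies at -0.09.

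The coefficient of variation over 3 libraries lay between 0.809% (CCNB2) and 5.57% (CCND3) among the 6 genes detected in control. In MT-treated blastocysts it lay between 0.698% (CCND2) and 12.1% (CDK2), and the 3 genes with the lowest means, CCND1, CCNE2 and CDK2, had the highest values there. Leaving out any one library changed the call or direction of none of these 6 genes. The calls of the 4 genes at 0 in every control library also held, but their direction could not change.

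**Figure D4:**
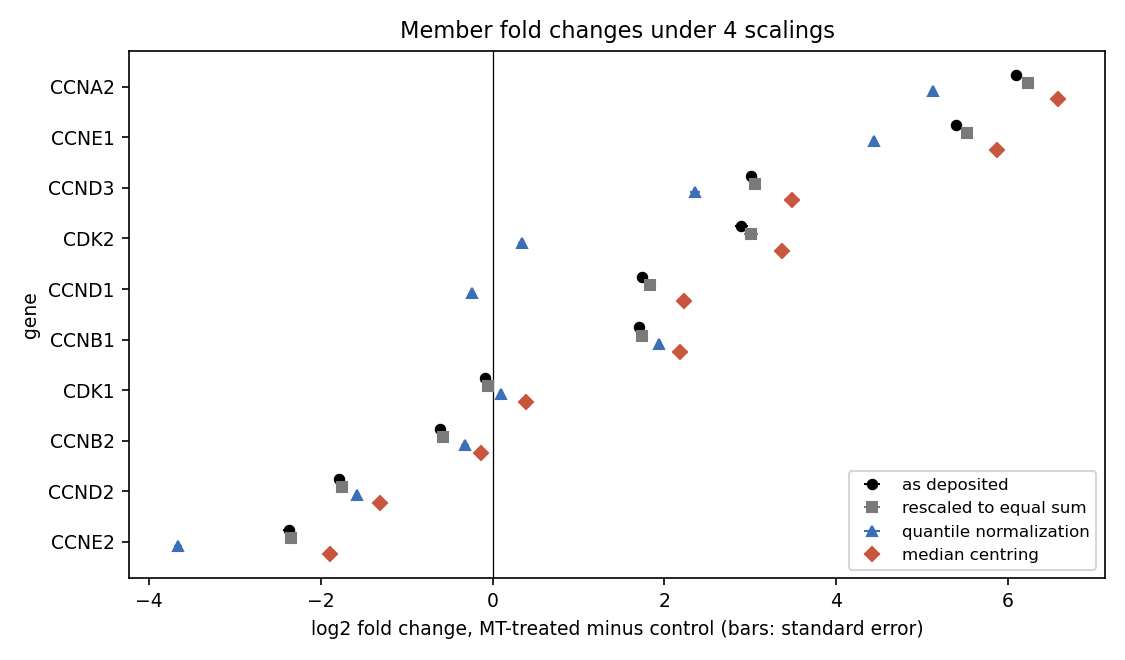
Log2 fold change of each gene (horizontal axis, bars for the standard error, mostly hidden by the symbols) with TPM as deposited, rescaled to an equal sum per library, quantile normalized and median centred. CDK1 crosses 0 between scalings and CCND1 crosses 0 under quantile normalization, while the other 8 genes keep their side.

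The rest of the pathway was followed in 9 lists of 110 genes, of which 109 were in the table and 85 were tested. Of these, 39 were higher (45.9%) and 39 lower (45.9%), beside 61.6% and 34.1% of all tested genes, and 12 (14.1%) were at 0 in every control library, beside 33.8% of tested genes. The split followed the scaling, with 29 higher and 50 lower after quantile normalization and 50 higher and 33 lower after median centring. The median log2 fold change was 0.03 over the 85 genes and 1.12 over all tested genes. The value of 1.12 includes the many genes at 0 in control. Over tested genes above 0 in all 6 libraries the median was -0.19, so the gap between 0.03 and 1.12 is not read as a trait of the pathway. Changes that were not seen under all of these scalings are marked below.

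Among the other cyclins and kinases of the cell cycle, 2 of 6 tested genes were higher and 4 lower (median log2 fold change -0.44), or 3 and 3 after median centring. CDK4, the kinase of D-type cyclins, fell from 131 ± 2.95 to 81.4 ± 3.92 TPM (SD, n = 3 each), while CDK6 was listed at 0 in all 6 libraries. The D-type cyclins summed to 2.30 ± 0.109 TPM per TPM of CDK4 in control and to 1.57 ± 0.0508 in MT-treated blastocysts (SD, n = 3 each; exact permutation test, two-sided, p = 0.1). CDK7, which activates other CDKs by phosphorylation, rose 2.84-fold to 48.8 TPM, and its cyclin CCNH fell from 58.2 to 36.1 TPM. CDK3 had a mean of 4.46 TPM in control and was listed at 0 in each MT-treated library. CCNF, which was at 0 in control, averaged 1.24 TPM after MT and reversed under quantile normalization. CCNA1, the germline counterpart of CCNA2, was listed at 0 in all libraries.

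Of 7 tested CDK inhibitors, 2 were higher and 5 lower (median log2 fold change -0.75). The 6 inhibitors above 0 in all 6 libraries had a median of -1.10. CDKN1A, which encodes p21, fell from 12.4 ± 0.136 to 3.80 ± 0.136 TPM (SD, n = 3 each). CDKN2D, an inhibitor of CDK4 and CDK6, fell from 29.1 ± 3.55 to 6.75 ± 0.715 TPM (SD, n = 3 each). CDKN1B, which encodes p27, had 1.39, 1.56 and 1.56 TPM in control and 6.84, 7.09 and 6.58 TPM after MT, a direction that reversed under quantile normalization. CDKN1C, which encodes p57, had 0, 0.04 and 0 TPM in control and 8.13, 8.06 and 9.22 TPM after MT, and was no longer called after quantile normalization. CDKN2A, CDKN2B and CDKN2C were listed at 0 throughout.

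The phosphorylation switch of CDK1 and CDK2 was covered by 7 tested genes, of which 5 were higher and 1 lower (median log2 fold change 1.24), or 3 and 3 after quantile normalization. Over the 6 of them above 0 in all 6 libraries the median was 0.93. CDC25 phosphatases activate the kinases and WEE1 and PKMYT1 inhibit them. CDC25C rose from 9.49 ± 0.451 to 34.8 ± 0.856 TPM (SD, n = 3 each) under every scaling. CDC25B went from 3.85 to 10.4 TPM and WEE1 from 0.560 to 6.03 TPM, and both reversed under quantile normalization. CDC25A was listed at 0 in control, with 4.78, 3.52 and 4.10 TPM after MT, and was no longer called after quantile normalization. PKMYT1 had 27.5 TPM in control and 28.1 TPM after MT and was not called, but was called higher after quantile normalization and median centring. The CDK-binding subunits CKS1B and CKS2, the most abundant genes of this list, moved apart, with CKS1B falling from 629 ± 11.6 to 337 ± 13.9 TPM and CKS2 rising from 1657 ± 15.7 to 2558 ± 23.2 TPM (SD, n = 3 each).

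Of the RB and E2F family, targets of the cyclin D and cyclin E kinases, 6 of 9 tested genes were higher and 3 lower (median log2 fold change 0.99), and 4 and 5 after quantile normalization. Without the genes at 0 in any library, 6 remained and their median was 0.15. RB1 and RBL2 were listed at 0 in all 6 libraries, and RBL1 (p107) was at 0 in control with a mean of 10.1 TPM after MT. E2F6, a repressor, was also at 0 in control and had 5.63, 5.53 and 5.68 TPM. E2F3 fell from 55.7 to 14.9 TPM. The dimerisation partners of the E2F proteins moved apart, TFDP1 rising from 11.2 ± 0.610 to 49.6 ± 3.91 TPM and TFDP2 falling from 136 ± 0.811 to 33.5 ± 0.821 TPM (SD, n = 3 each).

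**Figure D5:**
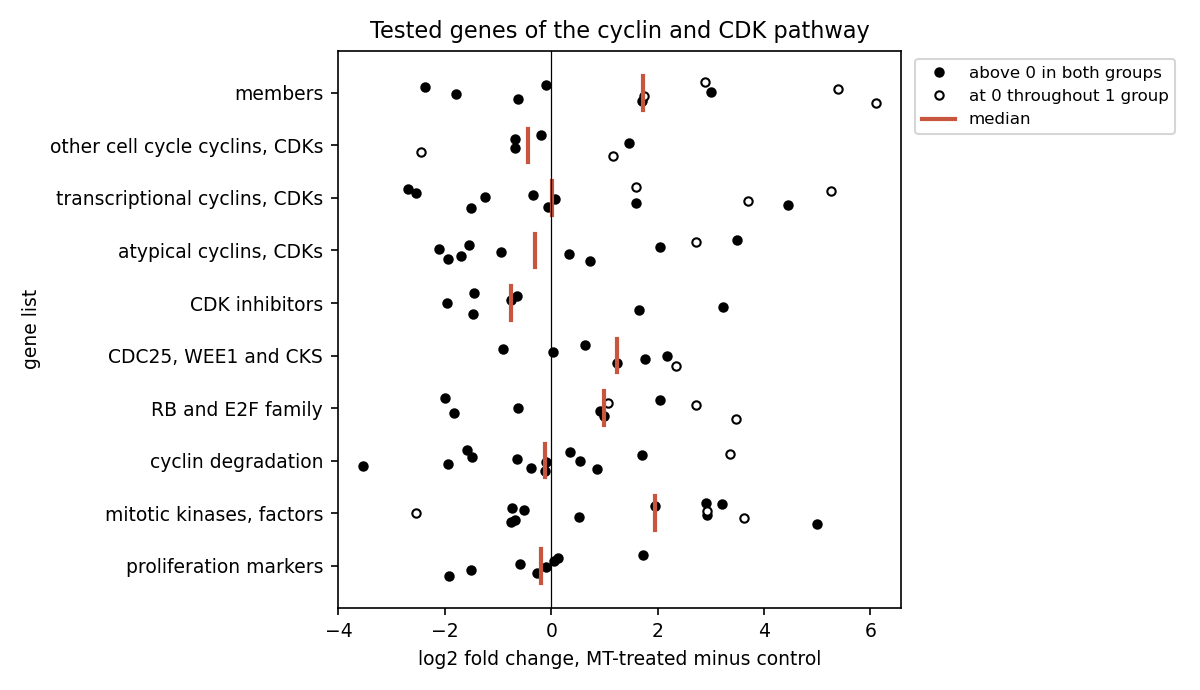
Log2 fold change of each tested gene in the member list and in 9 lists of related genes, with open circles for genes at 0 throughout 1 group and a red line for the median of each list. Members above 0 in all libraries span -2.37 to 3.01, and every list holds genes on both sides of 0.

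Among genes that destroy cyclins, 5 of 13 tested were higher and 7 lower (median log2 fold change -0.12), or 8 and 5 after median centring. The 12 above 0 in all 6 libraries had a median of -0.25. FBXW7, which marks cyclin E for destruction, fell from 23.4 ± 0.770 to 1.11 ± 0.0600 TPM (SD, n = 3 each). AMBRA1, which marks D-type cyclins, fell by 1.95 on the log2 scale. CDC20, which directs the anaphase-promoting complex to B-type cyclins, fell from 197 to 69.5 TPM, while its inhibitor FBXO5 was at 0 in control and had 8.96, 9.79 and 8.89 TPM after MT. FZR1, the alternative activator of that complex, had 0.233 TPM in control and 3.02 TPM after MT and reversed under quantile normalization. SKP2 was listed at 0 throughout.

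Of 13 tested mitotic kinases and regulators of cyclin genes, 8 were higher and 5 lower (median log2 fold change 1.95), or 5 and 8 after quantile normalization. Without the genes at 0 in any library, 9 remained and their median was 0.52. PLK1, a mitotic kinase, had 0, 0.04 and 0.02 TPM in control and 31.8, 30.3 and 32.8 TPM after MT, and BORA, which helps to activate it, was at 0 in control with 12.0, 11.2 and 10.8 TPM. AURKA fell from 131 to 77.6 TPM. MASTL, whose activity protects CDK1 substrates from dephosphorylation, had a mean of 4.86 TPM in control and was listed at 0 in each MT-treated library. MYBL2, an activator of mitotic genes, fell from 190.2 to 114.5 TPM.

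The 8 proliferation markers were all tested, with 2 higher and 4 lower (median log2 fold change -0.18), or 5 and 3 after median centring. MKI67 had 36.1, 36.6 and 34.8 TPM in control and 8.73, 9.25 and 8.21 TPM after MT, and TOP2A fell from 57.4 to 19.5 TPM. CENPF rose from 3.99 to 15.5 TPM and BIRC5 from 97.7 to 107 TPM. MCM2 (25.0 and 23.1 TPM) and RRM2 (68.5 and 70.7 TPM) were not called with TPM as deposited, and both were called higher after median centring. RRM2 was also called higher after quantile normalization and with libraries rescaled to an equal sum.

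Cyclins and kinases that act in transcription rather than in the cell cycle divided 5 higher and 5 lower among 12 tested genes (median log2 fold change 0.01), or 8 and 4 after median centring. Over the 8 of them above 0 in all 6 libraries the median was -0.79. CDK12, which phosphorylates RNA polymerase II, was listed at 0 in control, against a mean of 37.5 TPM after MT, whereas its close relative CDK13 fell from 26.5 to 3.26 TPM. CDK10 fell from 27.6 to 3.92 TPM, and CCNL1 had 0.02, 0.01 and 0 TPM in control and a mean of 21.0 TPM after MT. Its relative CCNL2 rose from 7.08 to 23.2 TPM. Among the less typical family members, 4 of 10 tested genes were higher and 5 lower (median log2 fold change -0.30). Their median was -0.94 over the 9 above 0 in all 6 libraries. CDK20 rose from 2.28 to 36.0 TPM, and CDK17 was listed at 0 in each control library and averaged 5.58 TPM after MT. CDK5 fell from 70.9 to 15.7 TPM and CCNI from 49.3 to 12.1 TPM.

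Among tested genes with a symbol, the 3 whose values lay closest to those of CCNB1 over the 6 libraries were PSMG2, CCDC68 and SKIC8, at Euclidean distances of 0.283, 0.319 and 0.440 on the log2(TPM + 1) scale. PSMG2, for example, had 61.0, 65.8 and 68.4 TPM in control and 242, 239 and 246 TPM after MT. Closest to CCND1 were DPYS, SEC16B and SLC25A22, at distances of 0.0522, 0.0727 and 0.0868, all listed at 0 in every control library. With 2 groups of 3 libraries this measure reflects little beyond the pair of group levels.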

How the data were processed

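RNA of 6 pools of bovine blastocysts (3 control, 3 MT-treated) was sequenced. The values the authors deposited are TPM with 2 decimals, 1 column per library. According to the study's methods, reads passed fastp and FastQC 0.11.9 and were aligned with STAR 2.7.9a and counted with featureCounts (Subread 1.6.3), and replicates came from independent in vitro production runs. The methods name ARS-UCD1.3 and the Smart-seq2 protocol, whereas the labels name ARS-UCD1.2 and a TruSeq kit. How counts became TPM is not given in the sources used here, so the authors' DESeq2 test could not be repeated and no counting error can be given. Coordinates and sequences are not used here.

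Libraries were grouped by label and fitted without pairing. limma 3.58.1 (R 4.3.3; lmFit, eBayes with trend) was fitted to log2(TPM + 1) of the 11953 genes that reached 1 TPM in 3 or more libraries and adjusted over all of them (threshold 0.05). The fit was also run on simulated data in which few genes changed and none was at 0 throughout a group. That setting is unlike the deposited values, so the run checks the code only. Ratios, shares and sums were compared by exact permutation tests (Python 3.11.15, numpy 2.4.6, pandas 2.3.3; plots with matplotlib 3.10.9). Members and lists were chosen with earlier results of these data known. The lists were written from general knowledge and cover other cell cycle, transcriptional and atypical cyclins and kinases, inhibitors, the phosphorylation switch, RB and E2F, degradation, mitotic regulators, proliferation markers and cell type markers. Beyond the members, up to 2 genes with the largest and 2 with the smallest log2 fold change among called genes of each list of the pathway were named, with 12 genes named in any case and the nearest profiles of CCNB1 and CCND1. CCNH, CCNL2, CKS2, TFDP1, CDC20, MYBL2, SKP2, RBL2, PKMYT1, CDKN2A, CDKN2B, CDKN2C, MCM2 and RRM2 and the cell type markers were named after their values were seen. Ratios to CDK1 and CDK4, sums by cyclin class and shares of all cyclin TPM were added after the data were seen.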

Additional observations from a re-analysis of the deposited data

How the results depend on the processing

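Of 145 values of the 10 genes under alternatives, 142 kept their direction and call and 3 reversed, namely CDK1 after median centring (0.39) and quantile normalization (0.10) and CCND1 after quantile normalization (-0.24). The 145 include those of the 4 genes at 0 in every control library. With TPM as deposited the direction of these 4 could not change, so the count of 142 is a description only. The reversal of CCND1 requires that quantile normalization set its control zeros above 0. Causes were otherwise not tested. Restricting the fit to genes above 0 in all 6 libraries, chosen after the data were seen, left 6 of the 10 members, 2 higher and 4 lower. It gave 2814 higher and 3626 lower genes in all, and 24 higher and 37 lower genes in the related lists. The restriction removed every gene at 0 throughout control. With TPM as deposited such genes could only come out higher, so the counts of higher genes fell most. With 1 added to each TPM, the difference in the share of CCND1 was 2.24 percentage points and that of CCNE1 83.1. Scaling to the median of common genes moved the difference of the cyclin sum to 203 TPM and turned that of CDK1 and CDK2 from -6.61 to 67.8 TPM. With the replicate number as a replicate block, 6 members were higher and 4 lower, 7379 genes were called higher and no member's call changed. The study ran its treatments side by side within each production run, but the labels do not say that a number marks the same run in both groups. Deviations from the group means of libraries with the same number had correlations of 0.0942, -0.000741 and 0.150 over 5988 genes, not all above the 0.1 asked for here to treat them as paired, which does not show that they were unpaired. The study's table of sequencing depth was not used here.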
